A study of Mus musculus with 4 samples.

Results

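Transcripts of 38 genes that mark endothelial cells, the lining cells of blood vessels, were examined in pancreatic islets of newborn mice. The genes were chosen by symbol and cover fenestration, cell junctions, receptors, transcription factors and capillary markers. All 38 were found among the 22564 protein-coding genes of the expression table. Islets are clusters of hormone-secreting cells in the pancreas, and here whole islets of strain 129sv mice at postnatal day 0 were sequenced. Of the 4 libraries, 2 came from Mettl3/14nKO mice and 2 from Wild-Type mice, the labels giving no further allele or treatment for either group. Mettl3 and Mettl14 encode the paired subunits of the enzyme that writes the N6-methyladenosine mark on RNA, and the study asked about RNA modification in these islets. No source used here gives the driver of the deletion, the cells in which it acts or any pooling of animals. The p-values therefore cover only the spread between these 4 libraries, which may be technical.

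Islets are among the most densely vascularised tissues. Their capillaries are fenestrated, with pores closed by diaphragms through which hormones reach the blood, and endocrine cells attract them by secreting vascular endothelial growth factor. Endothelial identity is held by transcription factors of the ETS, SOX and GATA families, and vessel growth and stability are controlled by receptor systems such as angiopoietin and Tie2, apelin and its receptor, and the BMP and TGF-beta receptors of the vessel wall.

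Depth was shallow. The Mettl3/14nKO libraries held 1216498 (replicate 1) and 744016 (replicate 2) fragments, and the Wild-Type libraries held 1255526 and 1617429. The deletion could not be checked by the targeted genes, since the fragments of Mettl3 (30 and 9 in Mettl3/14nKO, 20 and 47 in Wild-Type) and of Mettl14 (24 and 12, 32 and 54) passed no test (edgeR adjusted p = 0.850 and 0.310). The defining endothelial genes Pecam1, Cdh5 and Tie1 had fragments in all 4 libraries, as did the islet hormone genes.

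Endothelial transcripts were lower in Mettl3/14nKO islets, unevenly from gene to gene, and 1 gene of the set went strongly the other way. Plvap, the gene of the fenestral diaphragm, was 7.63-fold lower, while Apln, the gene of the secreted peptide apelin, went from at most 1 fragment in each Wild-Type library to 51 and 20 fragments. Of the 38 genes, 34 had enough fragments to be tested, and Gpihbp1, Icam2, Sox17 and Gata2 did not. With edgeR's quasi-likelihood test and Benjamini-Hochberg adjustment over all 10969 tested genes, 11 of the 34 fell (32.4%) and 1 rose, beside 1.6% of all tested genes that fell and 2.08% that rose (3.67% in either direction). The 34 had a median log2 fold change of -0.75, against 0.00 over all tested genes, and 28 were negative, as were 49.6% of all tested genes. A log2 fold change below -1 was found for 15 of the 34 and for 3.08% of all tested genes. Without Mettl3/14nKO replicate 1 that median was -1.002, and without Mettl3/14nKO replicate 2 it was -0.49. Leaving out 1 library keeps only 1 library in a group. Adjusted p-values of those fits cannot be set beside those of all 4 libraries. In 24 of the 34, both Mettl3/14nKO libraries lay below both Wild-Type libraries in CPM (fragments scaled to library size), a pattern shown by 22.6% of all tested genes. Summed over all 38 genes, the level was 1192 and 849 CPM in Mettl3/14nKO and 2136 and 1809 CPM in Wild-Type islets, a log2 ratio of -0.95. The groups did not overlap, and the exact two-sided permutation p was 0.333, the smallest that 2 libraries against 2 can give. In bulk islets, fewer endothelial cells and less RNA per cell cannot be told apart.

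DESeq2 called 8 of the 38 lower and 1 higher, and each of these was also an edgeR call. Over all genes DESeq2 called 0.359% lower and 0.667% higher. At an unadjusted p under 0.05 DESeq2 placed 13 of the 38 lower, beside 2.36% of all genes. Limma on log2(FPKM + 1) called 0 genes of 12231, members included, with 19 members lower and 1 higher at an unadjusted p under 0.05, where 9.46% of all genes were lower. FPKM values scale fragments by transcript length and library size, and are used below to compare levels between genes. In the deposited values this length scaling was not the same in every library. Calcrl had 8.85 FPKM at 28.8 CPM in Mettl3/14nKO replicate 1 and 1.55 FPKM at 18.8 CPM in replicate 2. Between the groups the median gene shifted by -0.21 on the log2(FPKM + 1) scale.

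**Figure D1:**
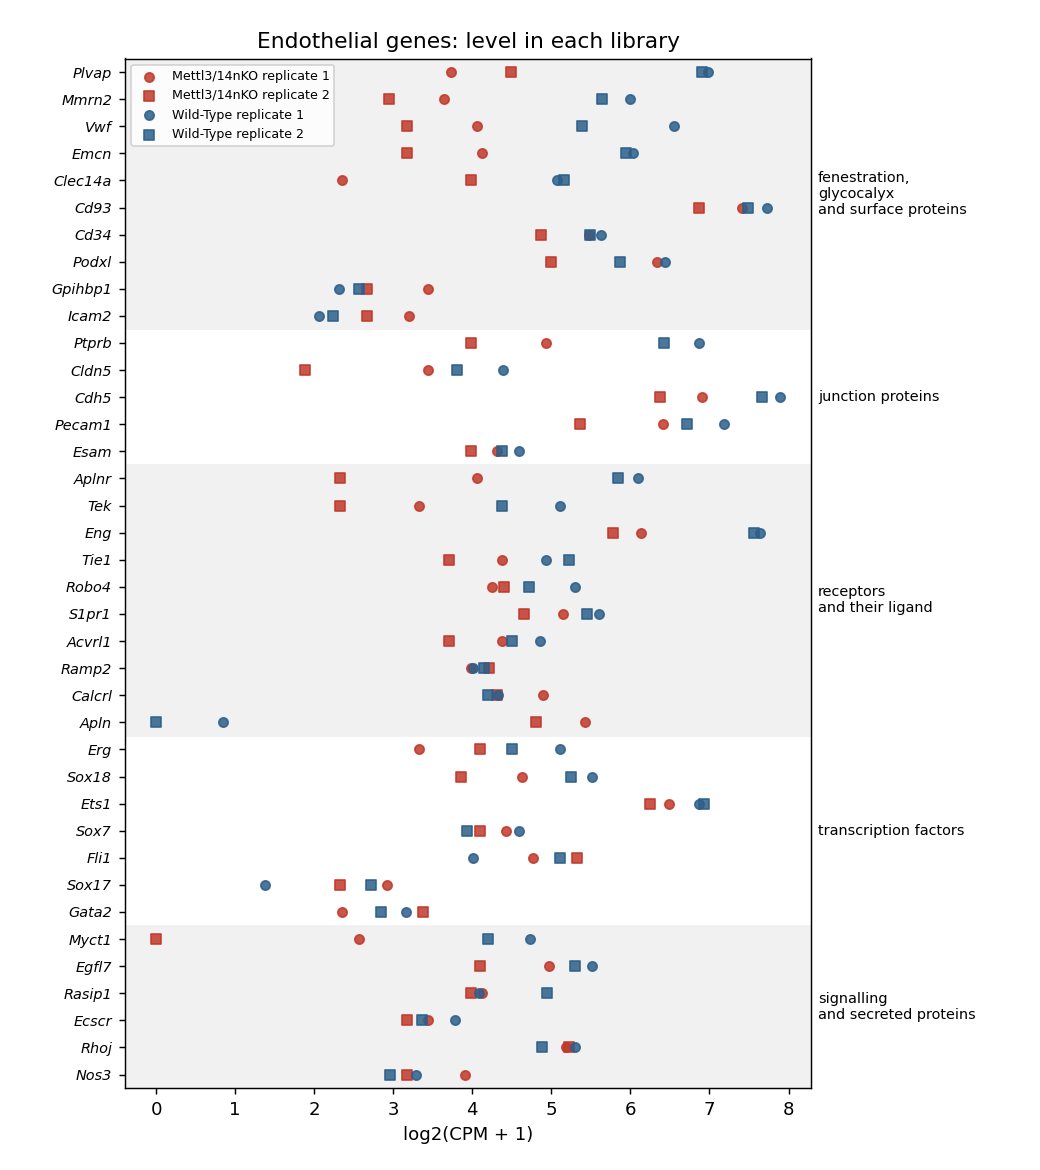
Level of each of the 38 endothelial genes in the 4 libraries, as log2(CPM + 1), grouped by role and ordered within a role by log2 fold change. Circles and squares are replicates 1 and 2, red Mettl3/14nKO and blue Wild-Type, and in 24 of the 34 tested genes both red points lie to the left of both blue points, while for Apln both lie to the right.

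**Figure D2:**
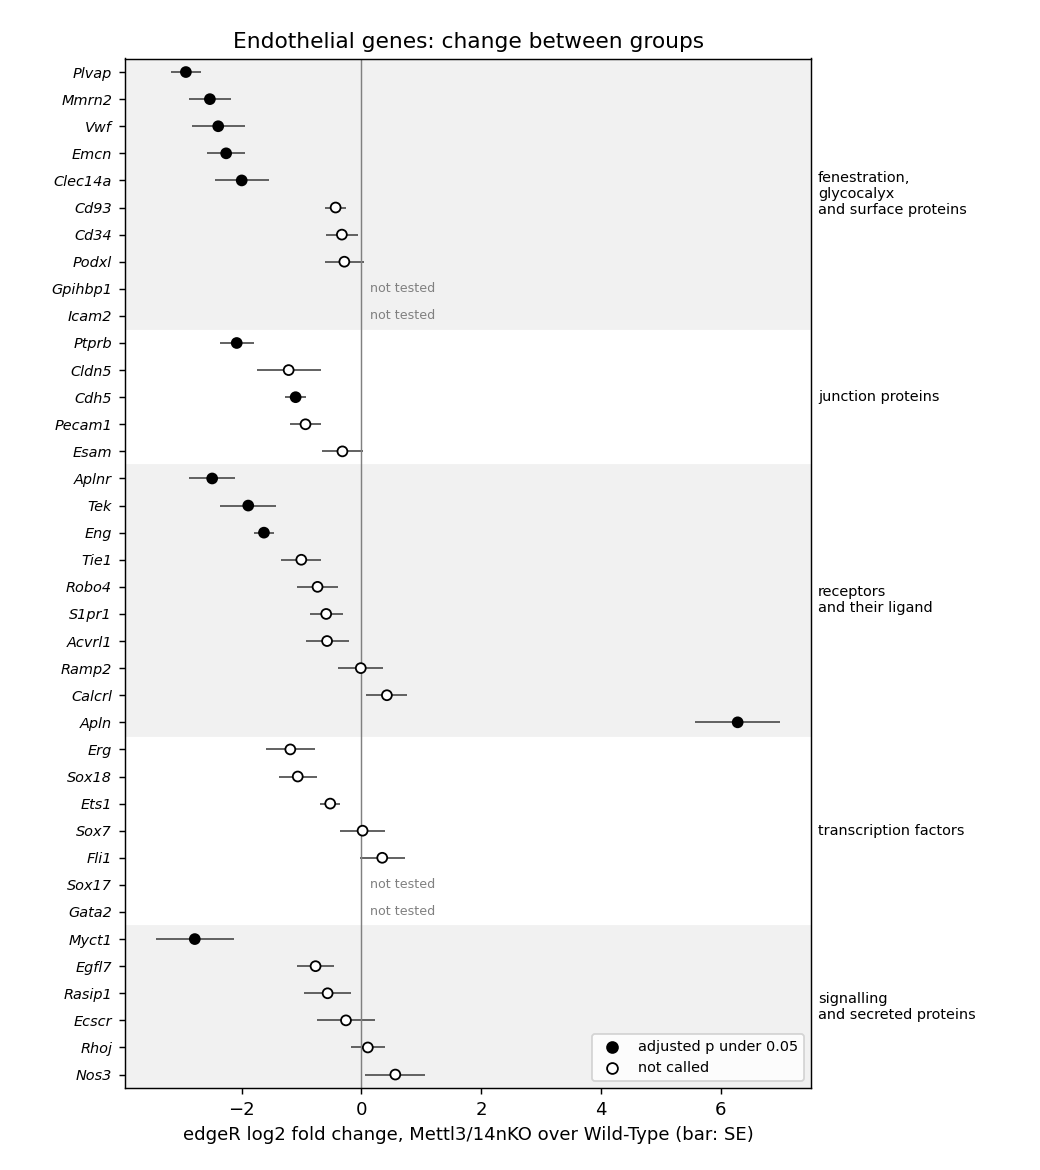
EdgeR log2 fold change of Mettl3/14nKO over Wild-Type with its SE for the 34 tested endothelial genes, filled where the adjusted p was under 0.05. The 11 filled points on the left run from Plvap (-2.93) to Cdh5 (-1.10), and the 1 on the right is Apln, whose fitted value depends on the prior count because Wild-Type islets held 1 fragment in all.

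Promoter sequences are shown so that genes that fell can be set beside the gene that rose. Of the 9 genes that both edgeR and DESeq2 called, 3 had a window in the RefSeq set used here (GRCm38.p6, the same assembly as mm10). They are Emcn and Eng, which fell, and Apln, which rose. Each window runs from 250 bases before to 50 after the annotated start, 5′ to 3′ on the strand of the gene, and capitals mark AGGAAG or its reverse complement CTTCCT, a core that ETS factors such as Erg and Fli1 can bind. Emcn lies on the plus strand at chr3:137340828-137341127, Eng on the plus strand at chr2:32646345-32646644 and Apln on the minus strand at chrX:48034804-48035103.
Emcn: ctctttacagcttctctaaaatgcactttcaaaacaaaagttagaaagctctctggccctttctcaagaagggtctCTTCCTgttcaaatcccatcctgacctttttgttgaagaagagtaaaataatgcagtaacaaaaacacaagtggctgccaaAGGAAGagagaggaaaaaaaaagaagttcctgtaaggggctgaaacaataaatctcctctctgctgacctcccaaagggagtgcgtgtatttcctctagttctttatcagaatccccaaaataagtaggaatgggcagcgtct
Eng: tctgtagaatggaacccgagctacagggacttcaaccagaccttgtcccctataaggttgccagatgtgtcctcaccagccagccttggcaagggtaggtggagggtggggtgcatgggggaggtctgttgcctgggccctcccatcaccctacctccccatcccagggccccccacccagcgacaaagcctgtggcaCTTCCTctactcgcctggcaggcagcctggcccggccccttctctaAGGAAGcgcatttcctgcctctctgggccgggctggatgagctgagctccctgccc
Apln: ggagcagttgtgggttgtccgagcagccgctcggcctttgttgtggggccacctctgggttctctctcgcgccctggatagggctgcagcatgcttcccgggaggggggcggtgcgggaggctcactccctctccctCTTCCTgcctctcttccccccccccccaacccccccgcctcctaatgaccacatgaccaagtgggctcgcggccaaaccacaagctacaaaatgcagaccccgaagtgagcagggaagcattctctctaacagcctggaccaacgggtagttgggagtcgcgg
The Emcn and Eng windows each held 2 such matches and the Apln window 1. The motif count used 21 windows of 16 members, some members having more than 1 window. Of these windows 13 (61.9%) held AGGAAG on either strand, against 35.4% of all 32851 RefSeq windows. Counted by gene, AGGAAG was found for 12 of the 16. CCGGAAG, another ETS core that shares the letters GGAAG but cannot match at the same core, was in 0 of the 21 windows and in 8.86% of all windows. The SOX core ACAATG was in 3 of the 21 (14.3%, against 12.6% of all windows) and the GATA core AGATAA in 3 (14.3%, against 11.2%). These are matches of letters only, and the base composition of the windows differed, with 41.0% G and C in Emcn, 63.3% in Eng and 64.0% in Apln.

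The role of fenestration, glycocalyx (the sugar coat of the vessel) and surface proteins held the most called members. By edgeR 5 of 8 tested were lower and 0 higher (median log2 fold change -2.13). The matrix protein gene Mmrn2 and the gene of the stored protein Vwf were counted in this role. Plvap (ENSMUSG00000034845, mm10 chromosome 8:71497765-71511752) encodes the protein that forms fenestral diaphragms. It stood at 12.3 and 21.5 CPM in Mettl3/14nKO and at 125 and 119 CPM in Wild-Type islets. The groups were far apart, and Plvap fell by 2.93 on the log2 scale (SE 0.26, adjusted p = 0.000147), the scale of all fold changes below. Mmrn2 (ENSMUSG00000041445, chromosome 14:34375465-34404287) encodes a matrix protein laid down by endothelial cells that binds Clec14a and Cd93. Its level was 11.5 and 6.72 CPM against 62.9 and 48.8 CPM, and it fell by 2.53 (SE 0.35, adjusted p = 0.00177). Its partner Clec14a (ENSMUSG00000045930, chromosome 12:58264720-58269290), a C-type lectin of the endothelial surface, had 5 and 11 fragments against 41 and 56, or 4.11 and 14.8 CPM against 32.7 and 34.6 CPM. It fell by 1.999 (SE 0.45, adjusted p = 0.0282), but did not pass with DESeq2 (adjusted p = 0.294). The log2 fold change of Clec14a was -1.17 without Mettl3/14nKO replicate 1 and -3.03 without Mettl3/14nKO replicate 2. The other partner, Cd93, a lectin receptor of endothelial and myeloid cells, stood at 169 and 116 CPM against 212 and 178 CPM, the groups just separate. The log2 fold change of Cd93 was -0.43 (SE 0.17, adjusted p = 0.235). It was -0.74 without Mettl3/14nKO replicate 1 and -0.22 without Mettl3/14nKO replicate 2.

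Emcn (ENSMUSG00000054690, chromosome 3:137341067-137432185), a sialomucin of capillary and venous endothelium, stood at 16.4 and 8.06 CPM against 64.5 and 60.6 CPM. Both Mettl3/14nKO libraries were well below the Wild-Type pair, and Emcn fell by 2.26 (SE 0.32, adjusted p = 0.00220), or -2.93 without Mettl3/14nKO replicate 1. Vwf (ENSMUSG00000001930, chromosome 6:125546774-125686679) encodes von Willebrand factor, the clotting protein stored in endothelial granules and also in platelets. It stood at 15.6 and 8.06 CPM against 93.2 and 40.8 CPM, the Wild-Type libraries differing from each other by more than for the other genes of this role that fell. Vwf fell by 2.39 (SE 0.44, adjusted p = 0.00939), with log2 fold changes of -1.71 without Wild-Type replicate 1 and -3.00 without Mettl3/14nKO replicate 1. The remaining sialomucins of the vessel surface did not pass. Cd34, shared with blood progenitors, stood at 43.6 and 28.2 CPM against 48.6 and 43.9 CPM (log2 fold change -0.33, adjusted p = 0.649). Podxl, which other epithelia and mesothelium also express, overlapped at 79.7 and 30.9 against 86.0 and 57.5 CPM (-0.29, adjusted p = 0.762). Without Mettl3/14nKO replicate 1 Podxl stood at -1.18, and without Mettl3/14nKO replicate 2 at 0.15. Gpihbp1, the capillary anchor of lipoprotein lipase, had 12 and 4 fragments against 5 and 8, and Icam2, an adhesion molecule shared with leukocytes and platelets, had 10 and 4 against 4 and 6. In CPM both of these lay higher in each Mettl3/14nKO library than in either Wild-Type library, on counts too low to be tested.

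All 5 junction genes had negative log2 fold changes (median -1.10), and 2 fell. Ptprb (ENSMUSG00000020154, chromosome 10:116275523-116389535) encodes VE-PTP, a receptor phosphatase of endothelium that acts on Tie2 and VE-cadherin. It stood at 29.6 and 14.8 CPM against 115 and 84.7 CPM and fell by 2.08 (SE 0.28, adjusted p = 0.00174), or -2.73 without Mettl3/14nKO replicate 1. Cdh5 (ENSMUSG00000031871, chromosome 8:104101625-104144511) encodes VE-cadherin, the adhesion protein of endothelial junctions. Its level was 118 and 82.0 CPM against 237 and 202 CPM. The groups did not overlap, and Cdh5 fell by 1.10 (SE 0.17, adjusted p = 0.00417), a smaller log2 fold change than that of Ptprb. Pecam1, or CD31, which leukocytes and platelets also carry, stood at 83.8 and 40.3 CPM against 145 and 104 CPM. Its log2 fold change of -0.93 (SE 0.26, adjusted p = 0.0723) did not pass. That value was -1.18 without Wild-Type replicate 2 and -1.60 without Mettl3/14nKO replicate 1. It was -0.70 without Wild-Type replicate 1 and -0.58 without Mettl3/14nKO replicate 2. The tight-junction gene Cldn5 had 12 and 2 fragments against 25 and 21, and a log2 fold change of -1.21 (SE 0.53, adjusted p = 0.284), which was -2.54 without Mettl3/14nKO replicate 1 and -0.73 without Mettl3/14nKO replicate 2. Esam, an adhesion molecule of endothelial junctions and platelets, stood at 18.9 and 14.8 CPM against 23.1 and 19.8 CPM (-0.32, adjusted p = 0.753).

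The apelin pair moved in opposite directions. Apelin acts through the G-protein-coupled receptor Aplnr and is made by the tip cells of growing vessels and by some other tissues, fat among them. Apln (ENSMUSG00000037010, chromosome X:48025146-48034853) counted 51 and 20 fragments in the Mettl3/14nKO libraries against 1 and 0 in the Wild-Type libraries, or 41.9 and 26.9 CPM against 0.796 and 0 CPM. Pooled over each group the Mettl3/14nKO level was 104 times the Wild-Type level, and the 95% counting interval, 18.1 to 4167, covers counting error only. Apln rose with edgeR (adjusted p = 0.000563) and with DESeq2 (0.00420). Its log2 fold change stayed positive in the edgeR fits that left out any 1 library. Aplnr (ENSMUSG00000044338, chromosome 2:85136225-85139923) stood at 15.6 and 4.03 CPM against 67.7 and 56.3 CPM. Both Mettl3/14nKO libraries were far below the Wild-Type pair, and Aplnr fell by 2.49 (SE 0.38, adjusted p = 0.00331), with a log2 fold change of -3.89 without Mettl3/14nKO replicate 1.

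Among the receptor tyrosine kinases, Tek (ENSMUSG00000006386, chromosome 4:94739289-94874976) encodes Tie2, the angiopoietin receptor. It had 11 and 3 fragments against 42 and 32, or 9.04 and 4.03 CPM against 33.5 and 19.8 CPM, with no overlap. Tek fell by 1.89 (SE 0.47, adjusted p = 0.0436), or -2.66 without Mettl3/14nKO replicate 1. The log2 fold change of Tek was -1.49 without Wild-Type replicate 1 and -1.54 without Mettl3/14nKO replicate 2. With DESeq2 Tek did not pass (adjusted p = 0.402). Its relative Tie1 stood at 19.7 and 12.1 CPM against 29.5 and 36.5 CPM, with a log2 fold change of -1.004 (SE 0.33, adjusted p = 0.138). Eng (ENSMUSG00000026814, chromosome 2:32646595-32682669) encodes endoglin, the co-receptor through which BMP9 and TGF-beta ligands act on vessels. Its level was 69.1 and 53.8 CPM against 198 and 188 CPM. The replicates of each group lay close together, and Eng fell by 1.63 (SE 0.17, adjusted p = 0.000270). Acvrl1, or ALK1, the type I receptor that endoglin assists, stood at 19.7 and 12.1 CPM against 27.9 and 21.6 CPM, a log2 fold change of -0.57 (SE 0.36, adjusted p = 0.509).

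The remaining receptors did not pass. Robo4, an endothelial receptor of the roundabout family, stood at 18.1 and 20.2 CPM against 38.2 and 25.3 CPM (log2 fold change -0.73, adjusted p = 0.309). S1pr1, the sphingosine-1-phosphate receptor that stabilises vessels and guides lymphocytes, stood at 34.5 and 24.2 CPM against 47.8 and 42.7 CPM (-0.59, adjusted p = 0.323). Both lay lower in each Mettl3/14nKO library. Calcrl and Ramp2 together form the receptor for adrenomedullin. Calcrl overlapped between the groups, at 28.8 and 18.8 CPM against 19.1 and 17.3 CPM (0.43, SE 0.34, adjusted p = 0.635). Ramp2 overlapped as well, at 14.8 and 17.5 CPM against 15.1 and 16.7 CPM (-0.01, SE 0.37, adjusted p = 0.995). Of the exonic bases of Ramp2, 33.4% are shared with the neighbouring gene Vps25 on the same strand, so its fragments may belong to either. The ligand gene Adm had 3 and 1 fragments against 1 and 0.

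Of the 7 transcription factors 5 were tested and 0 passed with edgeR or DESeq2, with 3 at an unadjusted edgeR p under 0.05. Erg, an ETS factor that maintains endothelial identity, stood at 9.04 and 16.1 CPM against 33.5 and 21.6 CPM. At -1.19 (SE 0.41) Erg did not pass (adjusted p = 0.152). The log2 fold change was -1.48 without Wild-Type replicate 2 and -0.74 without Mettl3/14nKO replicate 1. Sox18, a SOX factor of vessel and lymphatic development, stood at 23.8 and 13.4 CPM against 44.6 and 37.1 CPM (-1.06, SE 0.32, adjusted p = 0.0961). Both were lower in each Mettl3/14nKO library without passing. Ets1, an ETS factor also abundant in lymphocytes, stood at 88.8 and 75.3 CPM against 115 and 121 CPM (-0.52, SE 0.17, adjusted p = 0.123). Fli1, an ETS factor of endothelium and blood cells, overlapped at 26.3 and 39.0 CPM against 15.1 and 33.4 CPM (0.35, adjusted p = 0.749). Sox7, a relative of Sox18, overlapped at 20.6 and 16.1 CPM against 23.1 and 14.2 CPM (0.02, adjusted p = 0.988). The untested Sox17, which is also a factor of endoderm and arteries, had 8 and 3 fragments against 2 and 9, and Gata2, a factor of endothelium and blood progenitors, had 5 and 7 against 10 and 10.

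Among the remaining signalling and secreted proteins 1 of 6 fell. Myct1 (ENSMUSG00000046916, chromosome 10:5593775-5606904), an endothelial membrane protein, had 6 and 0 fragments against 32 and 28, or 4.93 and 0 CPM against 25.5 and 17.3 CPM. It fell by 2.78 (SE 0.65, adjusted p = 0.0325), but did not pass with DESeq2 (adjusted p = 0.213). Its log2 fold change was -2.52 without Wild-Type replicate 1 and -2.10 without Mettl3/14nKO replicate 2. The fitted value was -7.68 without Mettl3/14nKO replicate 1, which leaves that group at 0 fragments, so it is no measure of size. Egfl7, a secreted protein that hosts the endothelial microRNA miR-126, stood at 30.4 and 16.1 CPM against 44.6 and 38.3 CPM (-0.77, SE 0.31, adjusted p = 0.243). Rasip1, a Ras-interacting protein needed for vessel lumens, stood at 16.4 and 14.8 CPM against 15.9 and 29.7 CPM (-0.56, adjusted p = 0.560), with 42.9% of its exonic bases shared with neighbours. Ecscr, a regulator of endothelial chemotaxis, stood at 9.86 and 8.06 CPM against 12.7 and 9.27 CPM (-0.26, adjusted p = 0.872). Rhoj stood at 35.3 and 36.3 CPM against 38.2 and 28.4 CPM (0.11, adjusted p = 0.914). Nos3, the nitric oxide synthase of endothelium, stood at 14.0 and 8.06 CPM against 8.76 and 6.80 CPM (0.57, adjusted p = 0.672), and 32.3% of its exonic bases are shared with genes on the opposite strand. The groups overlapped for the last 4 of these genes.

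By FPKM, the order of the 38 levels differed between the groups, but also between replicates of a group, and was not tested. Calcrl was 8th and 25th in Mettl3/14nKO replicates 1 and 2, and Ramp2 18th and 10th in the Wild-Type libraries. Eng stood first in both Wild-Type libraries, at 36.1 and 37.5 FPKM, and Plvap second, at 33.2 and 34.8 FPKM. By the mean, Cdh5 followed at 30.03 and 28.0 FPKM, and then Pecam1 (24.8 and 24.7 FPKM) and Egfl7 (26.7 and 21.5 FPKM), which did not differ from each other beyond their spread. In Mettl3/14nKO replicates 1 and 2 Plvap was 23rd and 12th, at 3.11 and 4.56 FPKM. Emcn went from 6th and 5th to 18th and 21st, and Aplnr from 11th and 12th to 28th and 36th. Egfl7 (16.6 and 8.62 FPKM), Pecam1 (13.9 and 9.14 FPKM), Cdh5 (14.3 and 8.33 FPKM) and Eng (10.3 and 9.42 FPKM) then had the highest means, with ranges that overlapped. Apln, last in both Wild-Type libraries at 0.130 and 0 FPKM, was 14th in both Mettl3/14nKO libraries at 6.51 and 3.51 FPKM.

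To set each gene against the rest of the set, its fragments were expressed per 100 fragments of the other 37 genes in the same library. On this scale 11 of the 34 tested genes were lower in both Mettl3/14nKO libraries, 14 were higher and 9 overlapped. The set itself was lower in Mettl3/14nKO, and of all tested genes set against it 1.29% were lower and 85% higher. Plvap stood at 1.05 and 2.60 against 6.22 and 7.06 per 100, and Aplnr at 1.33 and 0.477 against 3.27 and 3.21. Cdh5 differed less, at 11.03 and 10.7 against 12.5 and 12.5, and Pecam1 overlapped at 7.57 and 4.98 against 7.28 and 6.13. Among the genes that made up more of the set in Mettl3/14nKO, Cd93 stood at 16.5 and 15.8 against 11.01 and 10.9, Calcrl at 2.47 and 2.27 against 0.903 and 0.966, and Apln at 3.65 and 3.27 against 0.0373 and 0. No test was made on this scale.

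**Figure D3:**
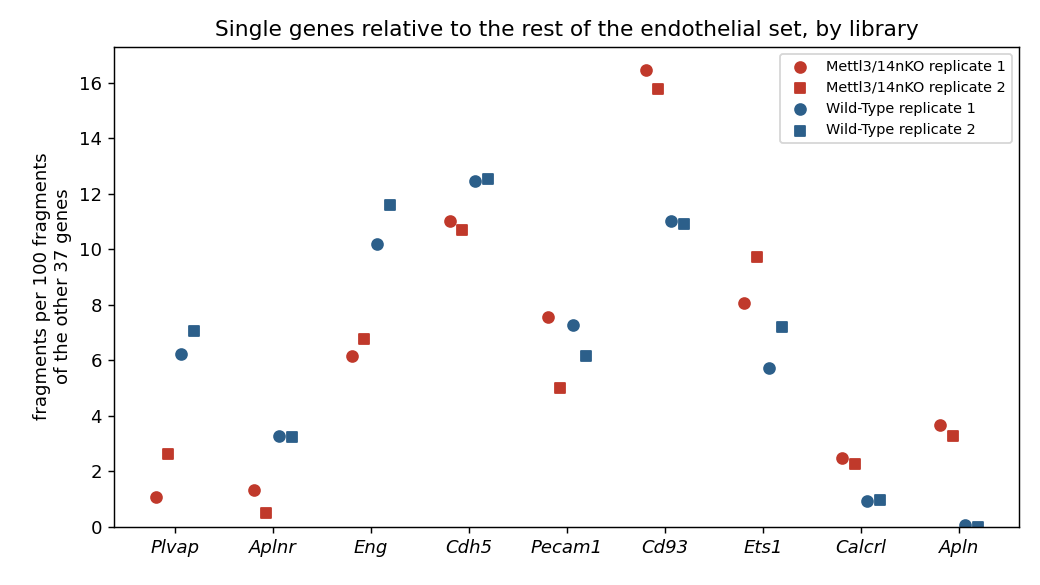
Fragments of single endothelial genes per 100 fragments of the other 37 genes in the same library, for 9 genes from those lower to those higher in Mettl3/14nKO, chosen after their values were seen. Plvap, Aplnr, Eng and Cdh5 are lower in both Mettl3/14nKO libraries (red) than in both Wild-Type libraries (blue), Pecam1 overlaps, and Cd93, Ets1, Calcrl and Apln are higher.

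Ligands and partner receptors of these genes were read from the same fit. Of 26 tested, 3 fell and 4 rose, beside 1.6% and 2.08% of all tested genes. With DESeq2 3 fell and 1 rose, beside 0.359% and 0.667% of all genes. The median log2 fold change was -0.09, 16 of the 26 were negative, and 10 overlapped between the groups in CPM. The VEGF receptor genes Kdr (79.7 and 39.0 against 203 and 215 CPM) and Flt1 (32.1 and 13.4 against 202 and 106 CPM) fell by 1.75 (adjusted p = 0.000953) and 2.64 (0.00154). Ednrb, the endothelin B receptor, fell by 2.16 (adjusted p = 0.000455), from 108 and 88.4 CPM in Wild-Type to 22.2 and 21.5 CPM. Vegfa, the main VEGF ligand gene, overlapped, at 567 and 530 against 622 and 516 CPM (-0.05, adjusted p = 0.904), and the Notch1 receptor stood at 0.23 (adjusted p = 0.491). The chemokine gene Cxcl12, made by stromal and some endothelial cells, rose by 2.12 (adjusted p = 0.00124), from 38.2 and 32.1 CPM to 197 and 99.5 CPM. Angptl2 (1.12, adjusted p = 0.0332), the TGF-beta receptor gene Tgfbr2 (0.90, 0.0201) and the Robo ligand gene Slit3 (1.52, 0.0435) rose in the fit of all libraries. None of these last 3 passed with DESeq2.

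Of 43 tested further endothelial genes 8 fell, Kdr and Flt1 among them, and 2 rose, beside 1.6% and 2.08% of all tested genes. With DESeq2 3 fell and 1 rose, beside 0.359% and 0.667% of all genes. This wider list moved less than the 38 members. Its median log2 fold change was -0.23, 27 of the 43 were negative, and 24 of the 43 overlapped between the groups in CPM. Sums over the 49 genes of the list overlapped as well (6180 and 4267 against 6909 and 5244 CPM). The adhesion GPCR genes Adgrf5 and Adgrl4 fell by 1.53 (adjusted p = 0.000898) and 1.86 (0.0254), and Cyyr1, a cysteine- and tyrosine-rich protein gene, by 1.77 (0.0190). The prostaglandin transporter gene Slco2a1 fell by 1.24 (0.0360), and the endothelial membrane protein gene Tm4sf1 fell by 1.28 (0.0457). Kank3 fell by 2.66 (0.0384). Kank3, Adgrl4, Slco2a1 and Tm4sf1 lay nearest the threshold of 0.05, and fits with 1 library left out cannot settle such calls. Fabp4, a fatty acid binding protein of capillary endothelium and fat cells, rose by 2.89 (0.00280), from 8.76 and 3.71 CPM in Wild-Type to 54.3 and 33.6 CPM. Igfbp3 rose by 1.05 (0.0349), also near the threshold. The basement membrane collagen genes Col4a1 (-0.29, adjusted p = 0.471) and Col4a2 (-0.15, 0.786), abundant in this list, did not pass.

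Markers of other cell types moved with the genotype as well, and their part in the values above was not tested. Leukocyte markers, 9 of 17 of which rose and 0 fell, had sums of 463 and 750 CPM against 91.6 and 168 CPM, both Mettl3/14nKO libraries being the higher. DESeq2 called 3 of them. Several endothelial genes, among them Cd93, Pecam1, Icam2, Fli1 and Ets1, are also expressed by blood cells. Mesenchymal markers, 10 of 16 of which rose and 0 fell, summed to 13987 and 10359 CPM against 6808 and 4733 CPM. With DESeq2 7 of the 16 rose. Of the 12 tested pericyte and smooth-muscle markers, the cells that wrap capillaries, Kcnj8 and Acta2 rose and 0 fell, and the sums overlapped (1072 and 819 against 978 and 727 CPM). Neither passed with DESeq2 (adjusted p = 0.464 and 0.171). The lymphatic markers passed no test with edgeR or DESeq2 (0 of 5, with 1 below an unadjusted edgeR p of 0.05). Their sums were 319 and 430 against 442 and 441 CPM, and the chemokine gene Ccl21a, 1 of the 7 in the list, had 1 fragment in all. Platelet markers were near the floor, with sums of 14.8 to 27.9 CPM, 0 of 11 genes tested and Gp9 at 0 in every library. Erythroid markers summed to 44.4 and 69.9 CPM against 114 and 219 CPM, and Hba-a1 fell by 1.96 (adjusted p = 0.00725), the same direction as the endothelial sum. The 16 endocrine markers summed to 61176 and 76656 CPM against 98829 and 100930 CPM, with 5 lower, the insulin genes among them. That count was 2 with DESeq2. Of 9 tested duct markers 4 fell and 2 rose, and their sums were 1003 and 1056 CPM against 1412 and 1494 CPM, lower in both Mettl3/14nKO libraries as the endothelial sum was. The count of 4 lower duct markers was the same with DESeq2 and under the other edgeR settings. Acinar sums overlapped (36.2 and 69.9 against 66.9 and 73.0 CPM), with 0 of 2 tested markers called in the fit of all libraries.

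**Figure D4:**
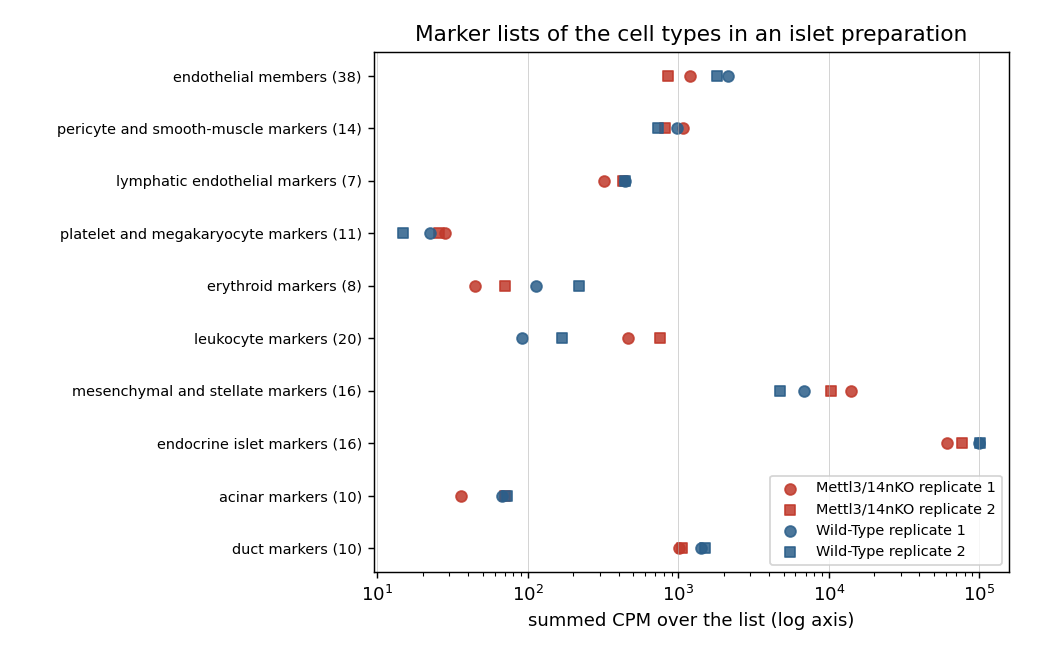
Summed CPM of marker lists in the 4 libraries on a log axis, with the number of genes in each list in brackets, red for Mettl3/14nKO and blue for Wild-Type, circles for replicate 1 and squares for replicate 2. The endothelial sum is lower in both Mettl3/14nKO libraries (849 and 1192 CPM against 1809 and 2136), leukocyte and mesenchymal sums are higher, and pericyte sums overlap.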

How the data were processed

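Islet RNA of 4 libraries (2 Mettl3/14nKO, 2 Wild-Type) was depleted of ribosomal RNA, prepared with a directional kit and read from both ends, per the labels. Cufflinks, Cuffdiff, HISAT2 2.0.4, cutadapt 1.9.3 and build mm10 are listed in the submitters' processing notes, without the annotation release or strand setting. FPKM and estimated counts are as deposited by the authors, under the file headers FPKM and Counts. The estimated counts are not whole, but 92.3 to 93.3% of the values above 0 in a library lay within 0.01 of a whole multiple of 1 step, so they were divided by that step and rounded to fragments.

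EdgeR 4.0.16 in R 4.3.3 (quasi-likelihood, TMM, filterByExpr) was fitted to all genes, two-sided, with Benjamini-Hochberg adjustment at 0.05. "Rose" and "fell" refer to this fit, and SE is the log2 fold change divided by the root of F. DESeq2 1.42.0 and limma 3.58.1 on FPKM were alternatives, with other filters, scalings and libraries left out in turn. On simulated fragments for this comparison (10969 genes, 100 changed at each size), edgeR recovered 70% of 2-fold and 98% of 4-fold changes and called 6 unchanged genes. The changed genes were drawn only from those with more fragments, and all genes had 1 common dispersion. These rates therefore do not cover members with few fragments. Within each group the pair of replicates was farther apart than sampling noise (chi-square over its degrees of freedom 2.30 for Mettl3/14nKO and 2.29 for Wild-Type). Of the table's gene IDs 96.8% matched GENCODE M21 (mm10), which gave coordinates and exon overlap. Reads of overlapping genes may be shared, and intervals cover counting error only. The members and lists were chosen with earlier results of these data known. All members are named, with the called genes (at most 8) of each pathway list, up to 2 further abundant ones, and abundant markers of other cell types; Adm, Ccl21a, Gp9 and Kcnj8 were named after their values were seen. Of 238 list entries 235 matched, by symbol or, where the table has another symbol, by Ensembl ID; Apela matched only a row that the table names Trim61 and is not reported. Tables and motifs used numpy 2.4.6, pandas 2.3.3 and scipy 1.17.1.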

Additional observations from a re-analysis of the deposited data

How the results depend on the processing

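The direction of the endothelial sum and of the members' median held under every alternative run, and the number of members that fell stayed between 8 and 14 with DESeq2 and all edgeR settings. Limma on FPKM, with a pseudocount of 1 or 0.1 and with or without a filter, called 0 genes and 0 members in either direction, with 17 to 19 members lower and 1 higher at an unadjusted p under 0.05; the cause was not tested. Over all genes, edgeR called 228 higher and 175 lower, DESeq2 93 and 50, and edgeR without a low-count filter 474 and 383. Leaving out 1 library gave a members' median of -1.002 to -0.49 and a log2 ratio of the sums of -1.22 to -0.73. Uncalled members near 0 changed sign. Leaving out 1 library, Podxl ranged from -1.18 to 0.15, Ramp2 from -0.13 to 0.14, Fli1 from -0.071 to 1.06, Sox7 from -0.32 to 0.38 and Rhoj from -0.11 to 0.33. Ramp2 stood at 0.0025 with DESeq2, and Sox7 at -0.018 with DESeq2, -0.19 with limma (pseudocount 1, with or without the filter) and -0.25 with limma (pseudocount 0.1). Same-numbered libraries did not deviate together (correlation 0.034 over 10756 genes), so the numbers were not taken as pairs. With a replicate block, edgeR called 217 genes higher and 168 lower, 12 members lower (Pecam1 added, adjusted p = 0.0142) and 1 higher, with Ramp2 at 0.011 and Sox7 at -0.030. Without the low-count filter Pecam1, Erg and Sox18 also passed. In that edgeR fit the adjusted p of Plvap was 1.7e-25, against 0.000147 with the filter, so its calls cannot be set beside the main ones. At 744016 to 1617429 fragments a library, members with under 10 fragments in a library could show only large changes.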
